A study of Mus musculus with 6 samples.

Results

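Laminins are the adhesive backbone of basement membranes, and nidogens, perlecan and agrin tie them to the collagen network and to cells. The 9 genes described here encode 3 laminin alpha chains (Lama2, Lama4, Lama5), 1 beta chain (Lamb2), 1 gamma chain (Lamc1), both nidogens (Nid1, Nid2) and the heparan sulphate proteoglycans perlecan (Hspg2) and agrin (Agrn). They were chosen by name, as the rows of the deposited expression table whose gene name equals 1 of these 9 symbols, out of 22162 genes. The rule itself uses no measured value, but the list was drawn up with earlier results of these data known.

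The table holds RNA-seq of mouse skin fibroblasts (MSFs) grown from the dorsal skin of FASST mice of the FVB/N strain. In FASST mice a Cre-ERT2 recombinase under the promoter of Col1a2, a gene of fibroblast collagen, can be switched on by tamoxifen (TAM), which releases a p27Kip1-IRES-GFP cassette at the ROSA26 locus from a stop signal flanked by loxP sites. Cells of 3 libraries were given 10 µM TAM for 48 h and are labelled senescent, and cells of 3 libraries were given the ethanol vehicle (EtOH) and are labelled non-senescent. The EtOH cells carry the same alleles, and both groups were kept at 3% oxygen. According to the methods the MSF line came from 1 female mouse, and nothing says that the 3 libraries of a group came from separate animals or cultures. The p-values below therefore measure the spread between these libraries, which may be technical. The comparison asks how the transcripts of the laminin network differ between TAM and EtOH cells.

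A laminin molecule is a cross of 1 alpha, 1 beta and 1 gamma chain. The alpha chain ends in globular domains that bind integrins and dystroglycan at the cell surface, and the short arms of the chains join neighbouring laminins into a sheet. Nidogens bind the gamma 1 chain at one end and type IV collagen at the other, perlecan holds growth factors on its heparan sulphate and binds nidogen, and agrin links laminin to dystroglycan. In skin the sheet lies under the epidermis and around vessels, nerves, muscle and fat, and dermal fibroblasts are a known source of nidogen.

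Values are normalized counts as deposited, whose scaling the table does not state. The libraries summed to between 14952367 and 17314953 normalized counts. A gene was tested if 3 or more of the 6 libraries reached 16.2 normalized counts, taken as 1 c.p.m., which left 11877 genes. The test was limma on log2(normalized counts + 1) with Benjamini-Hochberg adjustment over all of them. The fold changes are on that scale, TAM minus EtOH, and a gene is said to rise or fall if its adjusted p was under 0.05. A second fit added the replicate number as a block, because same-numbered EtOH and TAM libraries deviated together. Cdkn1b, the mouse gene of p27Kip1, had 1427, 3074 and 1853 normalized counts in EtOH and 1699, 1520 and 1630 in TAM replicates 1, 2 and 3 (limma adjusted p = 0.677). The sources do not say whether reads of the ROSA26 cassette were counted on it.

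The cells carried fibroblast transcripts throughout, but not at equal levels. The 10 fibroblast markers were all tested, and their summed level was 1589026 to 1773950 normalized counts in EtOH and 723072 to 1164149 in TAM. Most of that sum is Col1a1, Col1a2 and Col3a1. Of the 10, 6 lay below the EtOH range in every TAM library and 1 above it, against 11.4% and 9.19% of all genes tested. The median log2 fold change of the 10 was −0.91, and that of all genes tested was −0.03. Pdgfrb and Vim were at 1.05 and 0.904 times their EtOH mean in TAM, and Thy1, higher in every TAM library, at 2.32 times. Summed levels were 107 to 247 in EtOH and 28.2 to 50.9 in TAM for 8 endothelial markers, of which Emcn, Tie1 and Cdh5 were at or near 0 and Kdr made up most of the EtOH level. Only 1 of these 8 passed the filter, with a log2 fold change of −3.71. That marker was called lower with the block, as were 0.615% of all genes, and was not called without it. The 8 keratinocyte markers summed to 81.1 to 92.2 and 65.7 to 126, with Krt1 at 0 and Krt14 and Cdh1 near 0. The 7 Schwann cell markers summed to 40.1 to 53.3 and 23.4 to 36.2, with Foxd3 at 0 and Sox10 near 0. The filter was passed by 2 keratinocyte markers and 1 Schwann cell marker, with median log2 fold changes of −1.07 and −1.09. In each list 1 tested marker lay below the EtOH range in every TAM library, as did 11.4% of all genes tested. The 7 macrophage and leukocyte markers summed to 130 to 428 and 170 to 323, with Emr1 and Tyrobp at 0. The 5 melanocyte markers summed to 134 to 255 and 140 to 190, and the 5 adipocyte markers to 0.76 to 0.95 and 1.64 to 3.27. In these lists 2, 3 and 0 markers passed the filter. Of them, 1 macrophage and leukocyte marker lay above the EtOH range in every TAM library (9.19% of all genes tested). For 7 pericyte and smooth muscle markers the sums were 1138 to 1547 in EtOH and 1887 to 9122 in TAM, and for 7 skeletal muscle markers 33.4 to 67.6 and 38.9 to 1435, with Myod1 and Myog at or near 0. The 5 pericyte and smooth muscle markers tested had a median log2 fold change of 1.55. Of these 5, 2 lay above the EtOH range in every TAM library and 0 below it, against 9.19% and 11.4% of all genes tested. TAM replicate 2 stood apart, with the highest Cnn1 (6645) and Acta1 (1404) and the lowest Dcn (6712) of the 6 libraries. The part of these differences in the results below was not tested, and in bulk RNA fewer cells of a type and less RNA per cell cannot be told apart.

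All 9 genes passed the filter on low values. In limma without the block 0 of the 9 had an adjusted p under 0.05. Over all genes tested this share was 0.244%, made up of 0.168% higher in TAM and 0.0758% lower. Without adjustment 6 of the 9 had a p under 0.05, where 13.4% of all genes did. Of these, Lama5 and Agrn were higher in TAM, as were 6.67% of all genes, and Lama2, Lama4, Lamb2 and Hspg2 were lower, as were 6.70%. The fit with the replicate block called 1 of the 9 higher, Lama5, and 0 lower, where it called 1.62% of all genes (1.00% higher and 0.615% lower). The 3 TAM libraries lay outside the range of the 3 EtOH libraries for 7 of the 9 genes, against 20.6% of all genes tested. Lama5, Nid1 and Agrn were the 3 higher in TAM (9.19% of all genes), and Lama2, Lama4, Lamb2 and Hspg2 the 4 lower (11.4%). The median log2 fold change of the 9 was −0.73, and that of all genes tested was −0.03. Because the 9 were chosen with results known, these shares describe the genes and are no independent evidence.

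**Figure D1:**
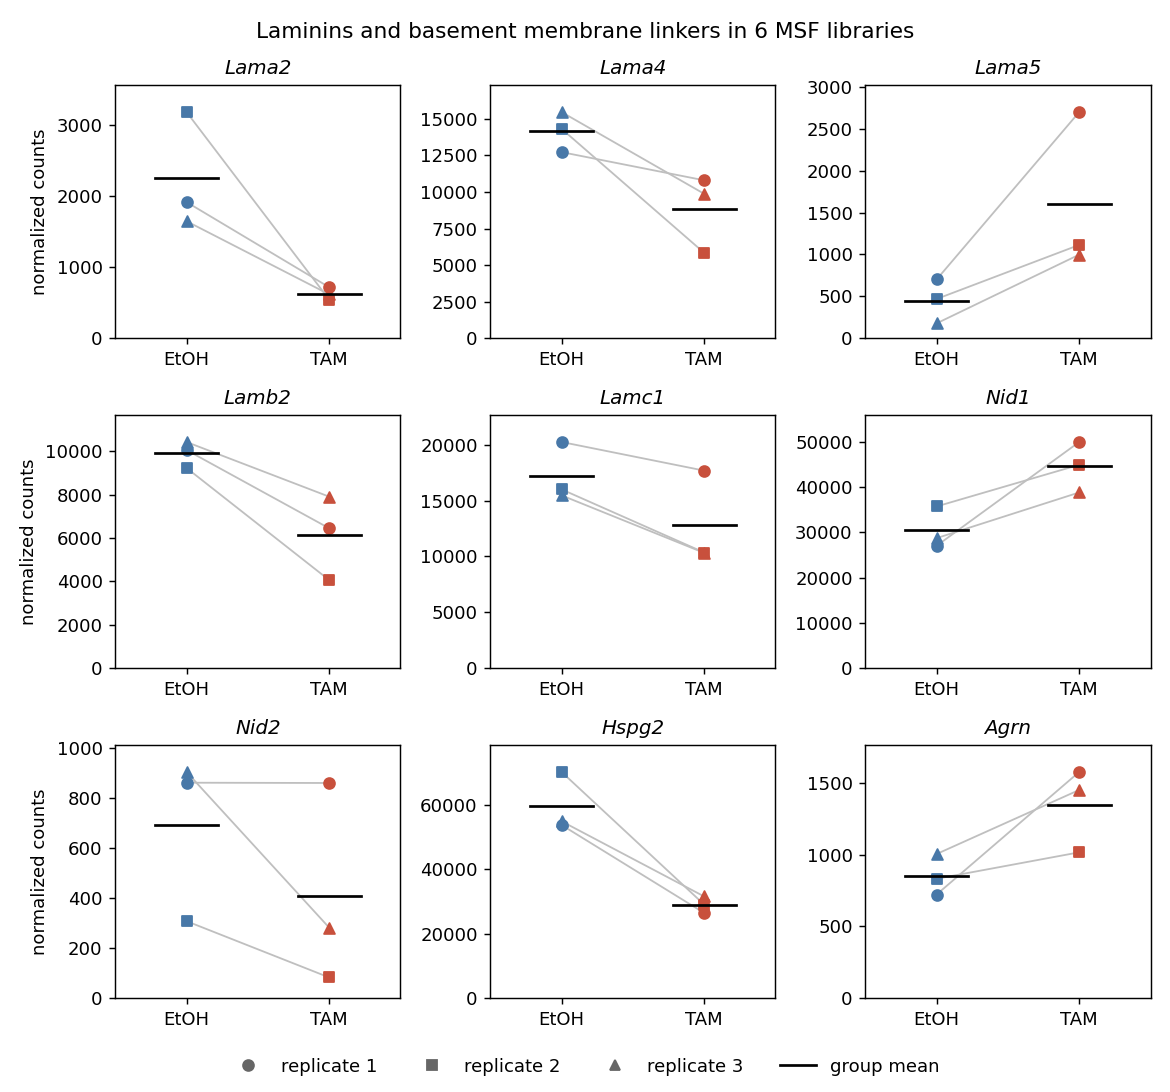
Normalized counts of the 9 genes in each library, on a linear axis from 0 with its own range in each panel. Points are the 3 EtOH and the 3 TAM libraries, same-numbered libraries share a marker and are joined by a line, and horizontal bars are group means. The TAM points of Lama5, Nid1 and Agrn lie above all EtOH points, those of Lama2, Lama4, Lamb2 and Hspg2 lie below, and those of Lamc1 and Nid2 overlap the EtOH points.

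Of the 3 alpha chains, Lama2 and Lama4 lay below and Lama5 above the EtOH range in all TAM libraries. Lama2 (ENSMUSG00000019899, chr10:26701094-27336748, minus strand, 66 blocks of exons in mm9) encodes the alpha 2 chain, the laminin of muscle and peripheral nerve whose loss causes congenital muscular dystrophy. Its normalized counts were 1916, 3184 and 1647 in EtOH replicates 1, 2 and 3 and 717, 542 and 616 in TAM. Every TAM library was below every EtOH library, and the TAM values lay close together. The means were 2249 ± 821 and 625 ± 87.6 (SD, n = 3 each), a 3.60-fold lower level in TAM. On the log2 scale the difference was −1.80 with a standard error of 0.27 (95% interval −2.43 to −1.16). The adjusted p in limma was 0.0628, so Lama2 missed the threshold, as it did with the block (0.0573). By unadjusted p it was number 51 of the genes tested and the first of the 9. The differences within the pairs of replicates 1, 2 and 3 were −1.42, −2.55 and −1.42.

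Lama5 (ENSMUSG00000015647, chr2:179911078-179960564, minus strand, 81 blocks of exons) encodes the alpha 5 chain, the broadly expressed chain of adult epithelial and vascular basement membranes. It had 701, 467 and 176 normalized counts in EtOH and 2701, 1113 and 997 in TAM. The lowest TAM library exceeded the highest EtOH library, and replicate 1 was the highest of each group. The means were 448 ± 263 and 1604 ± 952 (SD, n = 3 each), a 3.58-fold higher level in TAM, and the log2 fold change was 1.90. The standard error was 0.57 without the block, with an adjusted p of 0.242 in limma, and 0.27 with the block, where the adjusted p was 0.0481. The pairs differed by 1.95, 1.25 and 2.49. The call was lost when pair 1 or pair 3 was left out of the block fit (adjusted p = 0.0734 and 0.136) and held without pair 2 (0.00613). The table lists Lama5 with a span of 3271 bases at the place of a short non-coding transcript of the gene, out of 49487 bases for the whole gene, and which exons were counted is not stated.

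Lama4 (ENSMUSG00000019846, chr10:38685321-38829994, plus strand, 38 blocks of exons) encodes the alpha 4 chain, found in vessel walls and other mesenchymal basement membranes. Its normalized counts were 12727, 14324 and 15469 in EtOH and 10798, 5833 and 9874 in TAM. The groups did not overlap, with TAM replicate 2 the lowest. The difference on the log2 scale was −0.73 with a standard error of 0.28 (adjusted p = 0.323), and −0.45 without TAM replicate 2.

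The promoters of Lama2 and Lama5 are shown because these alpha chains had the largest differences of the 9 genes, in opposite directions. Both are 300 bases from the RefSeq table (build GRCm38.p6), 250 before and 50 after the annotated start, written along the transcript, and capitals mark the GC box GGGCGG on either strand. Lama2 lies at chr10:27616893-27617192 (minus strand), and Lama5 at chr2:180225810-180226109 (minus strand).
Lama2 promoter: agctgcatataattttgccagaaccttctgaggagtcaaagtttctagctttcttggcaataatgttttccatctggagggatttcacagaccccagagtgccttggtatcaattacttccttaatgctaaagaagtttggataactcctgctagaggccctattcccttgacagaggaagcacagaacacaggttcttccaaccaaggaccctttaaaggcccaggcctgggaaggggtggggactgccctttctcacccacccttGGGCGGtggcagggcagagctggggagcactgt
Lama5 promoter: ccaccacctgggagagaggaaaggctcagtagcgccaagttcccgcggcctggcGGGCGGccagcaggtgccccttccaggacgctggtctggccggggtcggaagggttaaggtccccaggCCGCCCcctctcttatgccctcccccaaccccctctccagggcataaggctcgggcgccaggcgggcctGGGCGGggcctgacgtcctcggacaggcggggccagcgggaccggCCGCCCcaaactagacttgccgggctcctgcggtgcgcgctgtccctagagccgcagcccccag
The Lama2 window was 50.3% G and C with 1 CpG and 1 GC box, and the Lama5 window 72.7% with 24 CpGs and 4 GC boxes. The medians over all 32851 promoters of the table were 52.7% and 7 CpGs, and 35.7% of the promoters held a GC box.

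The beta and gamma chains had lower means in TAM, by less than Lama2. Lamb2 (ENSMUSG00000052911, chr9:108382193-108392861, plus strand, 33 blocks of exons) encodes the beta 2 chain of the neuromuscular junction and the kidney glomerulus. Its values were 10064, 9237 and 10436 normalized counts in EtOH and 6454, 4062 and 7913 in TAM. All TAM libraries were below all EtOH libraries, and TAM replicate 2 was again the lowest. On the log2 scale Lamb2 differed by −0.74 with a standard error of 0.27 (adjusted p = 0.304), and by −0.47 without TAM replicate 2. Lamc1 (ENSMUSG00000026478, chr1:155066052-155179916, minus strand, 28 blocks of exons) encodes the gamma 1 chain, shared by most laminins and the site of nidogen binding. It had 20247, 16005 and 15467 normalized counts in EtOH and 17683, 10347 and 10315 in TAM. TAM replicate 1 lay within the EtOH range, so the groups overlapped. Its fold change of −0.47 had a standard error of 0.28 and a 95% interval from −1.13 to 0.19 (adjusted p = 0.534).

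The nidogens were far apart in level, and neither passed the test. Nid1 (ENSMUSG00000005397, chr13:13529869-13604542, plus strand, 20 blocks of exons), encoding nidogen 1, had 27035, 35736 and 28725 normalized counts in EtOH and 49988, 44948 and 38832 in TAM. Each TAM library exceeded each EtOH library, and the means were 30498 ± 4614 and 44589 ± 5586 (SD, n = 3 each). The difference of 0.55 on the log2 scale had a standard error of 0.26 (adjusted p = 0.412), with pair differences of 0.89, 0.33 and 0.43. Nid2 (ENSMUSG00000021806, chr14:20570479-20631009, plus strand, 21 blocks of exons), encoding nidogen 2, had 861, 307 and 904 normalized counts in EtOH and 860, 82.1 and 281 in TAM. Replicate 2 was the lowest of both groups, and TAM replicate 1 was as high as EtOH replicate 1, so the groups overlapped. For Nid2 the log2 difference of −1.19 had a standard error of 0.83 and a 95% interval from −3.16 to 0.77 (adjusted p = 0.592). It ran from −0.33 without TAM replicate 2 to −2.02 without TAM replicate 1, and was −1.70 without EtOH replicate 2. A gene on the other strand, 2700060E02Rik, overlaps 7.90% of the exon bases of Nid2, and whether the counting used strand is not stated in the sources used here.

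For perlecan all TAM libraries lay below the EtOH range and for agrin above it, and neither passed the test. Hspg2 (ENSMUSG00000028763, chr4:137024634-137126545, plus strand, 97 blocks of exons) encodes perlecan, the large heparan sulphate proteoglycan of nearly all basement membranes. Its normalized counts were 53813, 70316 and 54973 in EtOH and 26441, 29048 and 31579 in TAM. The highest TAM library was well below the lowest EtOH library, and the 3 TAM values were close to each other. The means were 59701 ± 9212 and 29023 ± 2569 (SD, n = 3 each), a 2.06-fold lower level in TAM. The log2 fold change of Hspg2 was −1.03 with a standard error of 0.26 (adjusted p = 0.183), with pair differences of −1.03, −1.28 and −0.80. Agrn (ENSMUSG00000041936, chr4:155539399-155571536, minus strand, 40 blocks of exons) encodes agrin, which clusters acetylcholine receptors at the nerve-muscle synapse through Lrp4 and MuSK. It had 722, 832 and 1005 normalized counts in EtOH and 1577, 1016 and 1452 in TAM. The groups did not overlap, but TAM replicate 2 was only just above EtOH replicate 3. Agrn differed by 0.65 on the log2 scale with a standard error of 0.23 (adjusted p = 0.290), and had pair differences of 1.13, 0.29 and 0.53.

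The promoters of Hspg2 and Agrn are shown because the TAM libraries of these proteoglycan genes lay on opposite sides of the EtOH range. They are drawn from the same table and marked in the same way. Hspg2 lies at chr4:137468553-137468852 (plus strand), and Agrn has a window at each of its 2 annotated starts, at chr4:156197439-156197738 (start A) and chr4:156186210-156186509 (start B), both on the minus strand.
Hspg2 promoter: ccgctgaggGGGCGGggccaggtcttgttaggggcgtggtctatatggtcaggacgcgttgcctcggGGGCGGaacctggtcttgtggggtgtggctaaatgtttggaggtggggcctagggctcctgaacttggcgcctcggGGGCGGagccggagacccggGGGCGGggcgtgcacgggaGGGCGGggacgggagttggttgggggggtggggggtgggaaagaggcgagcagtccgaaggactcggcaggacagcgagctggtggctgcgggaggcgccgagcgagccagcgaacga
Agrn start A promoter: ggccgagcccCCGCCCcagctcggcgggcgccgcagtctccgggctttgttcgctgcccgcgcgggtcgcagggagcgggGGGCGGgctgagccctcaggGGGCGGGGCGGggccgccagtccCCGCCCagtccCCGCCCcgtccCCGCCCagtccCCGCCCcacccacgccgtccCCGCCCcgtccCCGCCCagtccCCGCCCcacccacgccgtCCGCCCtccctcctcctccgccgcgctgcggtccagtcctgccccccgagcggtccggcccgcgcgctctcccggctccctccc
Agrn start B promoter: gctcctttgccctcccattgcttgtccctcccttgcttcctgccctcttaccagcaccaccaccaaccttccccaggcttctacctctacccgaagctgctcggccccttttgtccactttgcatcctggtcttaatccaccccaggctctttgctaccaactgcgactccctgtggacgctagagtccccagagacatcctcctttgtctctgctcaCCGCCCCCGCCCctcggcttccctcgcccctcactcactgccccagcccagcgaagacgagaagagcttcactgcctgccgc
The windows held 5 GC boxes for Hspg2, 12 for Agrn start A and 2 for start B, with 27, 42 and 11 CpGs. Gene-level values cannot tell which start of Agrn was used. In all, 6 of the 9 genes were in the promoter table, and the other windows were those of Lamb2 (44.0% G and C, 0 GC boxes) and Nid1 (64.7%, 1 GC box and 1 CCAAT box). The letters TATAAA and TGANTCA (an AP-1 site), searched on both strands, were in 0 of the 7 windows, and they were in 13.6% and 7.81% of all promoters. The letters CCAAT were in 37.4% of all promoters. A match of letters is a description of the window and not a site of binding.

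**Figure D2:**
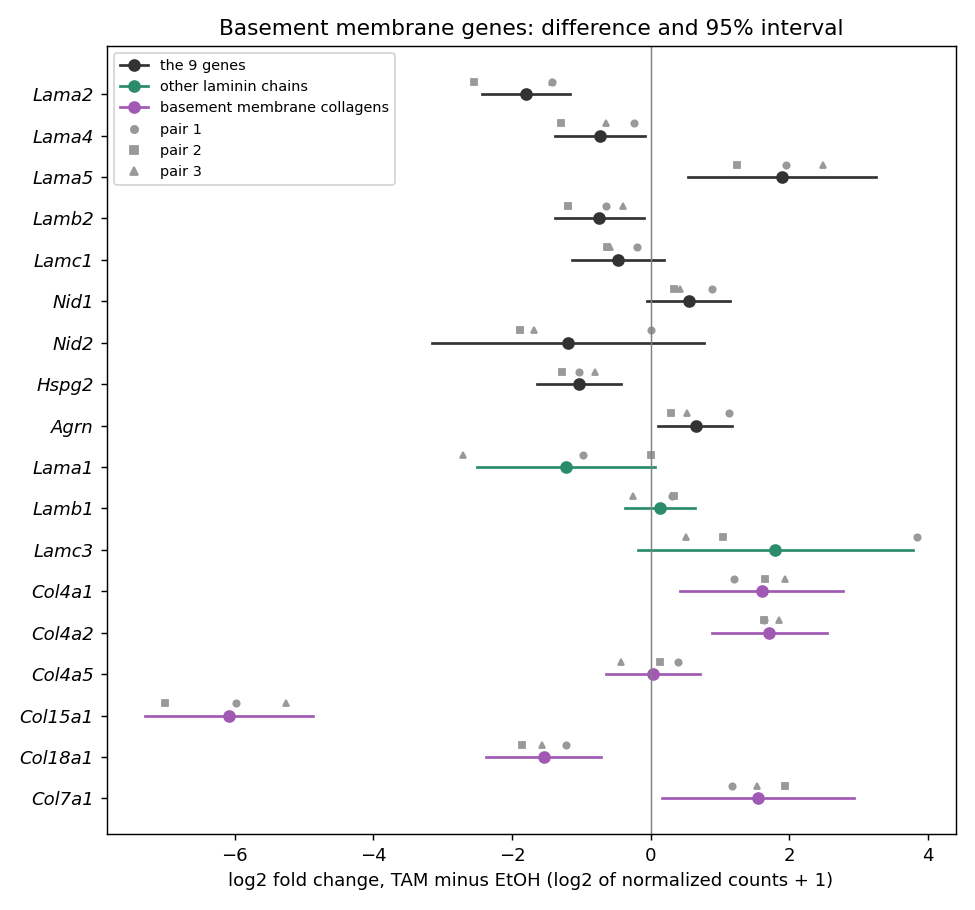
Log2 fold change (TAM minus EtOH, on log2 of normalized counts + 1) with its 95% interval from limma for the 9 genes, 3 other laminin chains and 6 basement membrane collagens, with the 3 pair differences as small grey marks. All 3 pairs of Lama5 lie above 1 and all 3 pairs of Lama2 below −1, while Nid2 has the widest interval of the 9 genes (−3.16 to 0.77).

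Levels were compared between genes per kilobase of merged exons. The order of the EtOH means was Nid1 (5044 normalized counts per kb), Hspg2 (4158), Lamc1 (2084), Lamb2 (1763), Lama4 (1174), Lama2 (231), Nid2 (141), Agrn (107) and Lama5 (39.3). Nid1 and Hspg2 overlapped over the libraries, as did Lama2 with Nid2 and Nid2 with Agrn, and the other neighbours did not. In TAM the order of the means was Nid1 (7375), Hspg2 (2022), Lamc1 (1545), Lamb2 (1092), Lama4 (732), Agrn (169), Lama5 (141), Nid2 (83.5) and Lama2 (64.2). There Nid1 stood clear of Hspg2 and Lama4 clear of Agrn, and all other neighbours overlapped. By mean, Lama2 stood above Nid2, Agrn and Lama5 in EtOH and below all 3 in TAM, and Lama5, the lowest of the 9 in EtOH, stood above Nid2 and Lama2 in TAM. The span the table lists is the whole gene for Nid1, Nid2 and Lamb2 and lacks 1 base for Hspg2. For Lama2 (123884 of 635655 bases), Lama4 (41882 of 144674), Lama5, Lamc1 (10223 of 113865) and Agrn (20612 of 32138) it is that of a shorter transcript. Their levels per kb would be higher if only those exons had been counted. The listed transcripts cover 1447 of 8272 exon bases for Lamc1, 2620 of 12068 for Lama4 and 734 of 11404 for Lama5. In that case the order given above would change, and Lama5 would not be the lowest in EtOH.

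Ratios within a library do not depend on how the libraries were scaled, and 6 of them were set side by side. The Lama5 to Lama4 ratio was 0.0550, 0.0326 and 0.0114 in EtOH and 0.250, 0.191 and 0.101 in TAM, a difference of 2.63 on the log2 scale. The Lama4 to Lama2 ratio was 6.64, 4.50 and 9.39 against 15.1, 10.8 and 16.0, a difference of 1.07. Each TAM library thus had more Lama5 per Lama4 and less Lama2 per Lama4 than each EtOH library. The Hspg2 to Agrn ratio was 74.6, 84.5 and 54.7 in EtOH and 16.8, 28.6 and 21.8 in TAM, a log2 difference of −1.68. The Lamb2 to Lamb1 ratio was 0.812, 0.867 and 0.739 against 0.419, 0.303 and 0.666, a log2 difference of −0.87. The Lamc1 to Col4a1 ratio was 3.68, 1.70 and 5.00 against 1.40, 0.351 and 0.869, a log2 difference of −2.07. For these 5 ratios the groups did not overlap, and the exact permutation test, two-sided, gave p = 0.1 each, the smallest that 3 against 3 libraries allow (0.12 adjusted over the 6 ratios). For Lama5 to Lama4 and Hspg2 to Agrn this had to follow, because the 2 genes of each ratio lay on opposite sides of the EtOH range. The genes were chosen with earlier results known, and no share over other pairs of genes was computed. The ratios therefore describe these genes and are no independent evidence. The Nid2 to Nid1 ratio overlapped between the groups (log2 difference −1.75, exact permutation p = 0.2), and the difference was −0.88 without TAM replicate 2 and −2.49 without TAM replicate 1.

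**Figure D3:**
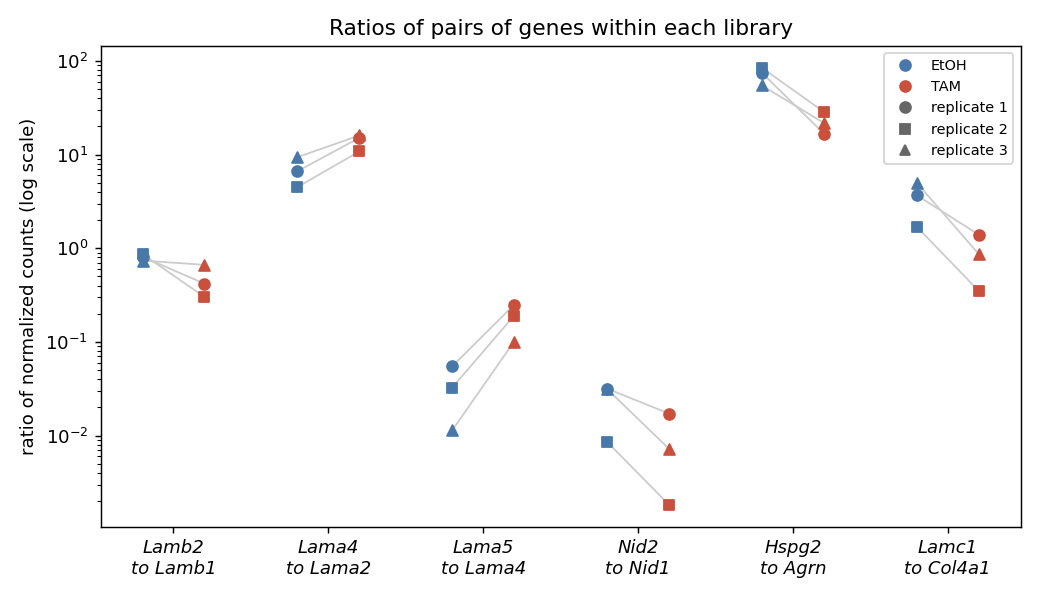
Ratios of normalized counts within each library for 6 pairs of genes, on a log axis. Points are the 3 EtOH and the 3 TAM libraries, with a marker for each replicate number and a line joining same-numbered libraries, and 5 of the 6 ratios do not overlap between the groups, the exception being Nid2 to Nid1.

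Of the other 6 laminin chains, 4 were tested. Limma called 0 of them in either fit, against 0.244% of all genes without the block and 1.62% with it. Before adjustment 0 had a p under 0.05 without the block, against 13.4% of all genes. Lamb1, the common beta 1 chain, had 12387, 10656 and 14113 normalized counts in EtOH and 15397, 13389 and 11890 in TAM. Its groups overlapped, with a log2 fold change of 0.13 (standard error 0.21), while Lamb2 differed by −0.74. Lama1, the alpha chain of the early embryo, was at 143, 72.5 and 143 against 72.1, 72.9 and 21.2 (log2 fold change −1.22, limma adjusted p = 0.394). Lamc3, the gamma 3 chain, was near the filter, at 3.61, 26.7 and 9.59 against 65.2, 56.1 and 14.1. It had a log2 fold change of 1.80 with overlapping groups (limma adjusted p = 0.413). Lama3 and Lamb3, chains of the laminin of keratinocyte attachment, did not pass the filter, and Lamb3 was at 7.05, 14.4 and 13.5 against 0, 4.18 and 1.17.

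Among the collagens of the basement membrane, 1 of the 6 tested was called without the block (0.244% of all genes) and 5 with it (1.62%). Col15a1, the collagen of the zone where basement membrane meets interstitial matrix, was at 1777, 2702 and 3199 normalized counts in EtOH and 27.2, 20.1 and 82.4 in TAM. It fell by 6.08 on the log2 scale (standard error 0.51), with an adjusted p in limma of 0.0175, and of 0.0147 when blocked. Without the block that call was lost when any 1 library other than TAM replicate 3 was left out. Col4a1 and Col4a2 encode the chains of the common type IV collagen network that nidogen binds. Col4a2 was at 6025, 9251 and 4324 against 18654, 28843 and 15640, and Col4a1 at 5505, 9394 and 3092 against 12658, 29487 and 11874. Neither overlapped, and the log2 fold changes of 1.71 and 1.60 passed the threshold only with the block (adjusted p = 0.131 and 0.253 without it, 0.0321 and 0.0461 with it). Both calls were lost without pair 1 (0.0648 and 0.0571) or pair 3 (0.187 and 0.276). Col18a1, source of endostatin, had a log2 fold change of −1.54, also past the threshold only with the block (0.152 and 0.0372) and lost without pair 3 (0.144). The fifth call with the block was Col7a1, the anchoring fibril collagen (1.55, 0.320 and 0.0451), which was singled out after its values were seen and was lost without pair 1 (0.0526) or pair 3 (0.163). Col4a1 and Col4a2 were thus higher in each TAM library, while the Lamc1 groups overlapped.

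The receptors of the network and the enzymes that modify dystroglycan gave 0 calls. Over all genes tested 0.244% were called without the block and 1.62% with it, so 0 calls in lists this short say little about these genes. Of 17 receptor genes tested 0 were called by limma, with or without the block, while 3 were higher at an unadjusted p under 0.05 (6.67% of all genes). These were the laminin-binding integrin chain Itga3 (log2 fold change 1.35), the collagen receptor Ddr1 (0.42) and the syndecan Sdc3 (0.84), with adjusted p-values of 0.240, 0.291 and 0.320. Dag1, which encodes the dystroglycan that binds Lama2, perlecan and agrin, had 5198, 8640 and 5404 normalized counts in EtOH and 4862, 4074 and 5392 in TAM. Its groups overlapped (log2 fold change −0.39, standard error 0.25, adjusted p = 0.560), as did those of the integrin chains Itgb1 (0.50) and Itga6 (0.19). Bcam, a receptor of the alpha 5 chain, did not pass the filter, at 10.1, 3.77 and 10.6 against 15.0, 39.4 and 27.3. Of 12 enzymes that put the laminin-binding sugar on dystroglycan 0 were called and 0 had an unadjusted p under 0.05, against 13.4% of all genes. The smallest p-values were those of Pomt2 (−0.32), B3gnt1 (0.29) and Dpm3 (−0.31).

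Of 18 genes for enzymes that build or edit heparan sulphate, the sugar that perlecan and agrin carry, 0 were called without the block (0.244% of all genes). Before adjustment 7 had a p under 0.05 in that fit on the higher side and 1 on the lower, against 6.67% and 6.70% of all genes. In the other fit 2 were called higher, against 1.00%. One was Sulf1, which removes sulphate from the finished chain, at 2346, 1460 and 1475 normalized counts in EtOH and 5154, 4487 and 3800 in TAM (log2 fold change 1.37, adjusted p = 0.0915 without the block and 0.0416 with it). The other was the 6-O-sulphotransferase Hs6st1 (1.17, 0.293 and 0.0420), named after its values were seen. Neither call held without pair 1 (0.0664 for Sulf1 and 0.131 for Hs6st1) or pair 3 (0.214 and 0.289). Extl3, which starts the chain, had a log2 fold change of 0.94 (0.0915 and 0.0807), and Hs3st3b1, a 3-O-sulphotransferase, of 2.76 (0.157 and 0.101). All of these 4 genes were higher in each TAM library than in each EtOH library, but they were named for a small p or after their values were seen. Of the 18 genes, 6 lay above the EtOH range in every TAM library and 0 below it. Over all genes tested these shares were 9.19% and 11.4%. Of 15 other basement membrane proteins tested 0 were called without the block (0.244% of all genes) or with it (1.62%). At an unadjusted p under 0.05 without the block 4 were higher (6.67% of all genes). Among them were Tinagl1 (1.41, adjusted p = 0.293), Loxl2 (0.82, 0.317), which crosslinks type IV collagen, and Ntn4 (1.87, 0.318), which binds the gamma 1 chain. The groups overlapped for Tinagl1 and Ntn4 and did not for Loxl2. Ntn4 was at 1470, 168 and 363 normalized counts in EtOH and 1406, 1720 and 1832 in TAM. Of 11 proteases that cut basement membrane proteins, Mmp3 was called higher with the block (1.00% of all genes), also with any 1 pair left out. Without the block 0 were called (0.244%), and 1 was higher at an unadjusted p under 0.05 (6.67%). Bmp1 and Tll1, related metalloproteases that process secreted matrix proteins, had log2 fold changes of 0.34 and 1.82 with adjusted p-values of 0.490 and 0.606.

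**Figure D4:**
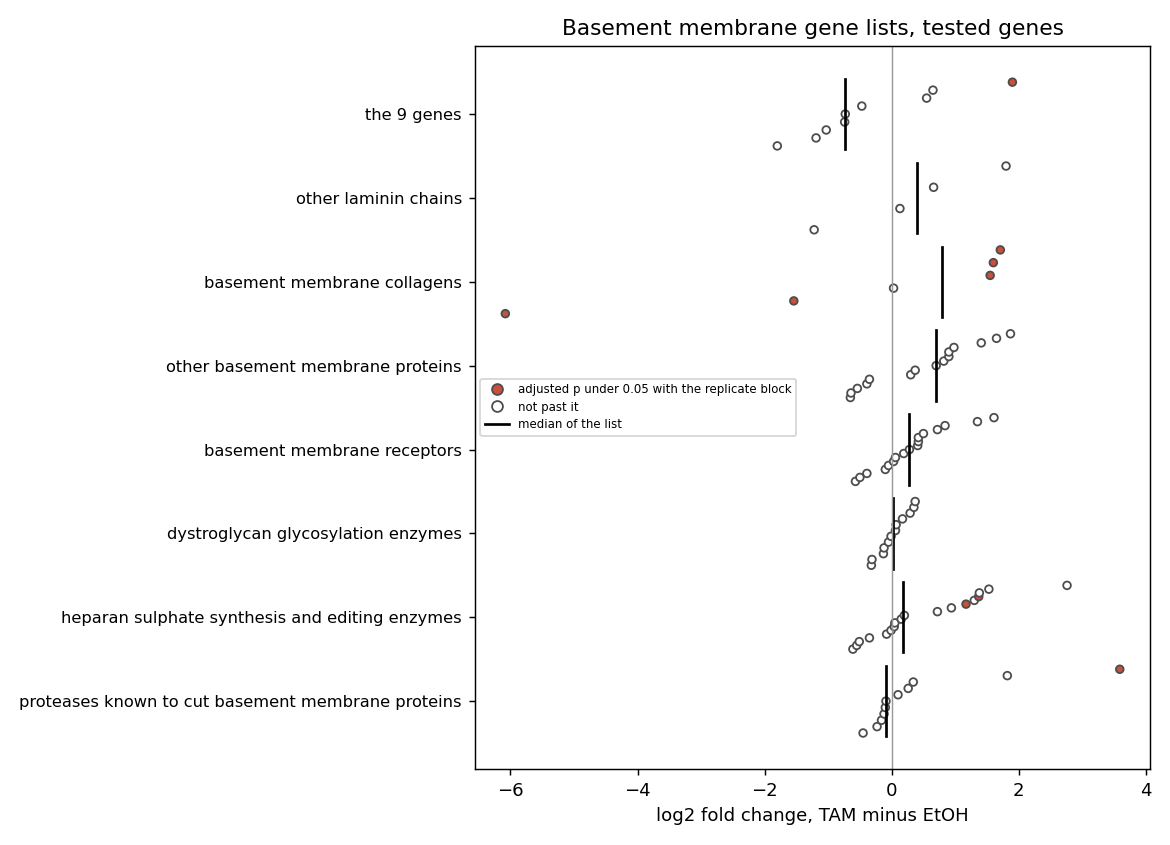
Log2 fold change (TAM minus EtOH) of each tested gene in the 9 genes and in 7 lists of related genes, with 1 point per gene and a black bar at each list's median. Filled points passed an adjusted p under 0.05 in limma with the replicate block: 1 of the 9 genes (Lama5), 5 collagens, 2 heparan sulphate enzymes and 1 protease.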

How the data were processed

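Poly(A) RNA of 6 MSF libraries, 3 labelled EtOH and 3 labelled TAM, was sequenced. According to the methods and the submitters' processing notes, reads were mapped to mm9 with TopHat and counted per gene with HTSeq, and edgeR with TMM was used for differential expression. The deposited table holds 1 column per library of normalized counts, used here as a signal, with unstated scaling and values that are not whole numbers, so no count model was run. Read depth is therefore unknown and no counting intervals were computed. Precision rests on 3 libraries in each group.

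Libraries were grouped by their labels. Log2(normalized counts + 1) was fitted with limma 3.58.1 in R 4.3.3, with an intensity trend. Genes entered if 3 or more libraries reached 16.2 normalized counts, and p-values were adjusted by Benjamini-Hochberg. The model was tested on simulated data. Libraries with the same number correlated in their deviations from the group means (r = 0.24, 0.29 and 0.42, other pairs −0.31 to 0.04, across genes, which are not independent replicates), so the replicate number, which comes from the library titles, was also fitted as a block. Within a group the 3 deviations of a gene sum to 0, so these correlations are tied to each other. They do not settle whether the libraries were paired. Alternatives were 2 other pseudocounts, 2 other filters, 3 other scalings, no trend, library weights and each library left out. Positions come from the mm9 annotation, and promoters from RefSeq (GRCm38.p6). Python 3.11.15 with pandas 2.3.3 served for the tables, and matplotlib 3.10.9 for the plots.

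The 9 genes and the lists of related genes and markers were chosen with earlier results of these data known. The genes named are the 9, the other laminin chains but 1 that is not reported here, 4 collagens, 4 receptors, and in each further list, receptors included, the genes called without the block or, where none was, the 3 with the smallest p in that fit, with Cdkn1b. Col7a1 and Hs6st1 were added after their values were seen. Tmem5 and Dpm1 were listed but not matched in the table.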

Additional observations from a re-analysis of the deposited data

How the results depend on the processing

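The log2 fold changes of the 9 genes kept their direction under every alternative tried, and the 6 ratios did with each library left out in turn, but which genes pass the threshold depends on how the spread between libraries is modelled. With the replicate block 1 of the 9 was called higher (Lama5) and the calls over all genes went from 20 higher and 9 lower to 119 and 73, and those over the 7 lists of related genes from 0 higher and 1 lower to 6 and 2. With library weights 1 of the 9 was called higher (Agrn, adjusted p = 0.0434) and 2 lower (Lama2, 0.00672, and Hspg2, 0.0419), with 386 and 356 calls over all genes and 8 and 4 over the lists. Without a filter there were 12 and 5 calls over all genes, and 4 lower with at least 10 normalized counts in every library. Leaving out 1 library in turn gave 0 to 6 higher and 0 to 9 lower over all genes, 0 to 1 lower over the lists and 0 of the 9. The block with 1 pair left out, chosen after seeing the data, gave 85, 472 and 52 higher and 57, 383 and 36 lower over all genes without pair 1, 2 and 3, 1 to 12 and 1 to 4 over the lists, and, without pair 2, 1 of the 9 higher (Lama5) and 1 lower (Lama2). Over all alternatives the adjusted p ran from 0.00672 to 0.231 for Lama2, 0.00613 to 0.553 for Lama5, 0.0419 to 0.582 for Hspg2 and 0.0434 to 0.726 for Agrn. The cause of these moves was not tested. The block changed no other call among the 9 genes, and for the ratios it allows no p below 0.25. Scaling by library size moved the median log2 fold change of all genes from −0.03 to 0.08. With unknown read depth, Lamb3, Lamc3 and Bcam rest on few reads.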
